A study of Mus musculus with 7 samples.

Results

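Hepatocytes of the livers without tumor were examined in 3 of the 7 single-cell RNA libraries of the series, NEJ638, NEJ654 and NEJ677. A barcode was counted as a hepatocyte when it held over 1000 transcripts tagged with unique molecular identifiers (UMIs), at most 20% of them mitochondrial, and when 7 genes of secreted or lipid-binding liver proteins (Alb, Apoa1, Apoa2, Apoc1, Apoc3, Ttr and Fabp1) made up at least 10% of its base UMIs. Base UMIs are those of genes whose symbols do not start with mt-, Hba- or Hbb-. The members were thus selected on measured values, and their levels of these 7 genes are a description. The rule kept 592 barcodes of the 18897 in these libraries that passed both quality limits (3.13%), of which NEJ638 gave 225, NEJ654 gave 194 and NEJ677 gave 173. In the 4 other libraries the same rule kept 3 of 40660 barcodes in NEJ634 and 0 in NEJ687, NEJ709 and NEJ723.

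The study crossed mice carrying Alb-Cre, in which albumin regulatory sequence drives Cre in hepatocytes, with mice carrying CAG-MYC, a human MYC transgene behind a floxed stop, on a C57BL/6J background. Its text describes 4 tumors of double carriers beside 3 healthy livers. Only the tumor libraries are identified there, so the libraries used here are healthy livers by elimination. The labels call every library a hepatoblastoma murine model and give no group, age, sex or genotype. The methods describe normal controls as littermates without Alb-Cre, without CAG-MYC or without both, so a library used here may carry a single transgene. Cells were freed with collagenase, filtered, and loaded on a droplet kit that reads the 3' end of transcripts. Because the labels give no groups, every value belongs to 1 library, no test between libraries was made, and intervals (exact Poisson for levels, Clopper-Pearson for shares, both 95%) cover counting error only.

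Hepatocytes make most plasma proteins, dispose of ammonia through the urea cycle, convert cholesterol to bile acids and release glucose between meals. They also secrete hepcidin, the hormone that limits iron export into blood. Their tasks are split along the liver lobule: cells near the portal vein favour urea and glucose synthesis, and cells near the central vein favour glutamine synthesis and drug oxidation. In mice, growth hormone secretion differs between the sexes and sets male-biased or female-biased transcription of many hepatocyte genes.

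The members had median depths of 9669 UMIs in NEJ638, 4195 in NEJ654 and 7191 in NEJ677, against 2270, 2969 and 3339 in the other barcodes that passed the limits. Summed base UMIs of the members were 1833265, 1299086 and 1385648. Levels are given throughout as UMIs summed over the members of a library per 1000000 of these base UMIs. The share of the 7 selection genes over all members was 12.9% in NEJ638, 17.2% in NEJ654 and 15.4% in NEJ677. It was 0.707%, 0.675% and 1.03% in the other barcodes that passed the limits. In low-UMI barcodes, those far down the ranking by UMIs, which hold mostly free RNA, it was 5.08%, 4.69% and 5.01%. The lowest member held 10.0%, 10.1% and 10.0%, and the highest barcode left out held 9.96%, 9.95% and 9.98%. Over 50% haemoglobin UMIs were held by 17 members of NEJ638, 0 of NEJ654 and 1 of NEJ677, and they are included in the counts of members. Without them NEJ638 had 208 members and a selection share of 12.94%, and NEJ677 had 172 members.

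Of the 5 hepatocyte markers, the selection rule used 4 (Alb, Apoa1, Ttr and Fabp1), so that only Cyp2e1 serves as a check of the label. Alb, albumin, the main plasma protein, lay at 47664 per 1000000 in NEJ638, 77791 in NEJ654 and 58706 in NEJ677. Apoa1, the main protein of high-density lipoprotein, lay at 10052, 10941 and 11081. Ttr, the carrier of thyroid hormone and of the retinol-binding protein, lay at 8898, 15794 and 11068. Fabp1, the fatty acid-binding protein of the hepatocyte cytosol, lay at 21506, 9263 and 24140. Cyp2e1, an ethanol-oxidising cytochrome P450 that the rule did not use, lay at 1957, 914 and 1491. It was found in 67.1%, 37.1% and 46.2% of members. In kept barcodes of 5 to 10% selection share it lay at 2184, 179 and 483. In NEJ638 it thus did not set members apart from those barcodes. Summed with Cyp1a2, Glul, Oat and Slc1a2, Cyp2e1 lay at 2815, 1292 and 2394 in members. The same sum was 543, 290 and 363 in the other barcodes that passed the limits. In the low-UMI barcodes it was 734, 876 and 947, nearest to the members in NEJ654. Alb and Ttr were highest and Fabp1 and Cyp2e1 lowest in NEJ654, whereas Apoa1 differed least. Of the remaining selection genes, all small apolipoproteins, Apoc1 lay between 19056 and 24875, Apoa2 between 17640 and 22336 and Apoc3 between 4523 and 11371.

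Albumin is the gene whose regulatory sequence drives Cre in this model, and its proximal promoter is shown because the rule and the transgene both rest on it. The 250 bases before the RefSeq start of Alb are given 5′ to 3′ from GRCm38.p6, chr5:90460620-90460869, plus strand, with the letters of the HNF1 half-site GTTAAT in capitals.
Alb: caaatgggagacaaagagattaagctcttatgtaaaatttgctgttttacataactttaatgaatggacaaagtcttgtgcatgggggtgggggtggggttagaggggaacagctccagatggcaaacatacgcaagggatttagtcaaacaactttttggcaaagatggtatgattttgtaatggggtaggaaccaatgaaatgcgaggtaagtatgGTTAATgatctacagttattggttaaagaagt
The half-site begins 32 bases before the RefSeq start. Of 32851 mouse promoters of this length, 6.43% hold GTTAAT on either strand. Alb itself (ENSMUSG00000029368) is a protein-coding gene at chr5:90460897-90476602 in GENCODE M21, which starts it downstream of the RefSeq start used here. The build used for the deposited counts is not given in the sources used here.

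The list of 10 Kupffer cell and macrophage markers summed to 75.3 per 1000000 in NEJ638, 567 in NEJ654 and 154 in NEJ677, against 3484, 8442 and 5835 in the other barcodes. The 10 endothelial markers summed to 156, 455 and 131, against 7911, 6349 and 6235. No marker of these lists was at 0. Krt19, Krt7 and Cldn7, defining markers of bile duct cells, had no UMI in any library. The cholangiocyte list rested on Tm4sf4, at 138, 105 and 122 per 1000000. This list summed to 158, 121 and 134 in members, 172, 136 and 335 in the other barcodes and 114, 50.4 and 68.2 in low-UMI barcodes. In NEJ638 and NEJ654 the other barcodes lay within the intervals of the members (140.5 to 177.5 and 102.7 to 141.3). Of the 11 lists of other cells, 11 lay below the other barcodes in NEJ638, 11 in NEJ654 and 10 in NEJ677, where the pancreas list stood at 66.4 against 54.2 and rested on Cela1 at 65.7. Digestive enzyme RNA of the exocrine pancreas reached 4385 per 1000000 in the low-UMI barcodes of NEJ638 and 58.9 in its members. Members that carried over 1% UMIs of other cells numbered 11, 9 and 1. No barcode was a member in 2 libraries, and 3, 7 and 1 members shared a barcode with a kept barcode of another library. Of the 3 barcodes of NEJ634, 3 held over 1% UMIs of other cells.

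Barcodes of 5 to 10% selection share numbered 349 in NEJ638, 182 in NEJ654 and 605 in NEJ677. Their median number of genes was 105, 801 and 956, against 2755, 1488 and 1821 in members. To describe these barcodes, UMIs of 72 genes of secreted plasma proteins were set against UMIs of 27 genes of the urea cycle and amino acid breakdown, a split drawn up after the values had been seen. At least 20 such UMIs were held by 107, 134 and 512 of the barcodes of 5 to 10%. The secreted share of these UMIs over all members was 79.8% in NEJ638, 82.9% in NEJ654 and 84.8% in NEJ677. Over the barcodes just below the limit it was 78.4%, 40.4% and 49.6%. Members with a secreted share under 50% numbered 2 of 209 with enough UMIs in NEJ638, 2 of 194 in NEJ654 and 37 of 173 in NEJ677.

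**Figure D1:**
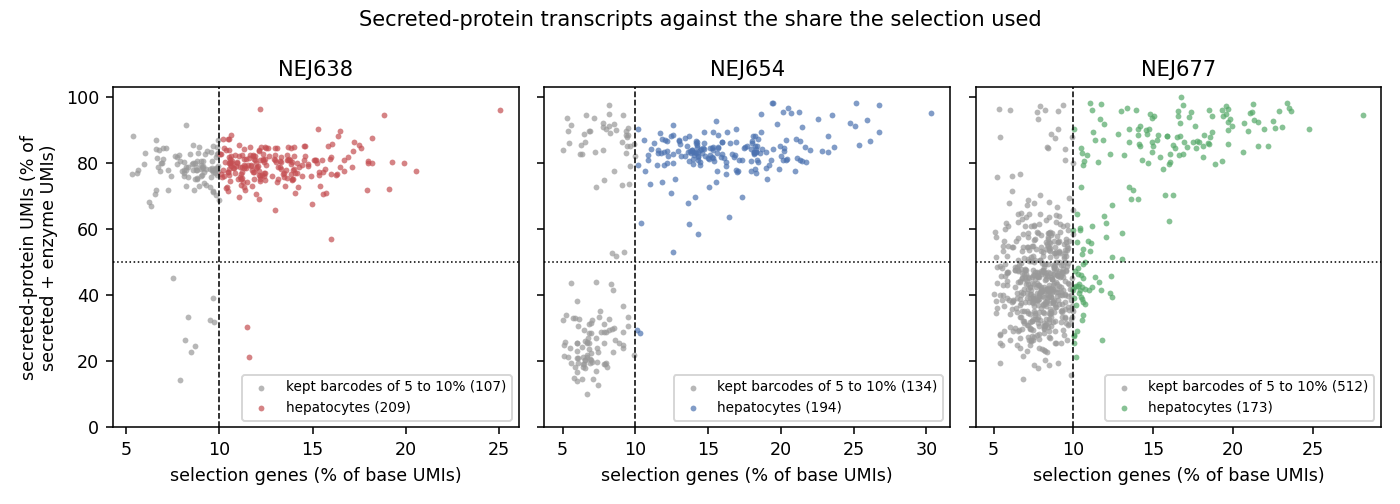
Each point is a barcode with at least 20 UMIs of the secreted-protein and enzyme genes. The x axis gives the share of selection genes in base UMIs (%), the y axis the share of secreted-protein UMIs among secreted-protein and enzyme UMIs (%), with members in colour, barcodes of 5 to 10% in grey, the 10% limit dashed and the 50% mark dotted. In NEJ677, 37 members lay below the 50% mark, beside 365 grey barcodes, against 2 members each in NEJ638 and NEJ654.

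The 37 members of NEJ677 with a low secreted share differed from its other members in further genes. Alb was at 2487 per 1000000 in them and at 68605 in the other 136 members. Trf, transferrin, was at 1128 against 15799, C3, the central complement protein, at 67.5 against 5833, and Cyp3a11, a drug-oxidising P450 of the endoplasmic reticulum, at 91.6 against 3621. Cyp2e1, the marker that the rule did not use, was at 91.6 against 1737, so that the check of the label does not hold for these 37. Fabp1, a selection gene, was at 60152 against 17798. Gnmt, a methyl-group enzyme of glycine, was at 5495 against 1771, whereas Cps1, the first enzyme of the urea cycle, was at 289 against 1775. The ferritin chains Fth1 and Ftl1 were at 8720 and 9761 against 3856 and 3932. Malat1, a nuclear RNA, was at 135 against 5480, and the median mitochondrial share was 0.449% against 5.70%. These contrasts follow in part from the split itself, which used secreted and enzyme genes and did not use Cyp2e1, Cyp3a11, the ferritins, Malat1 or mitochondrial UMIs. Kept barcodes below the 10% limit that had a low secreted share held Alb at 1812 per 1000000 in NEJ638, 3860 in NEJ654 and 3214 in NEJ677. Their median mitochondrial share was low in NEJ654 and NEJ677, at 1.07% and 0.840%, but not in the 9 barcodes of NEJ638, at 5.55%. Within 10 percentage points of the 50% mark lay 22 of the 37 members and 175 of the 365 barcodes below the limit in NEJ677, so that these numbers depend on where the mark was set. What these barcodes are was not tested. Levels of NEJ677 include the 37 members unless stated otherwise. Without members of low secreted share, the order of libraries changed for some genes. Fth1 was then 3856 in NEJ677 and 4203 in NEJ654, Trf 15799 and 14650. Dbi, a carrier of acyl-CoA, was 3392 in NEJ677 and 3761 in NEJ638. Alb stayed highest in NEJ654, at 78911.

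The 19 plasma carriers and protease inhibitors had the highest sum of the function lists. They summed to 57622 per 1000000 in NEJ638, 67237 in NEJ654 and 65411 in NEJ677. Trf, which carries iron, lay at 11092, 14436 and 13602, and Ahsg, fetuin-A, which keeps calcium phosphate in solution, at 9222, 10200 and 8416. Serpina3k, a kallikrein inhibitor, lay at 6786, 3765 and 7133, and Serpina1c, an alpha-1-antitrypsin gene, at 3364, 5181 and 5129. Serpina1 genes are near-identical copies whose reads may be split between them. Of 1682 genes of at least 100 per 1000000 in 1 library, the highest library was over 2 times the lowest in 23.7%, and this share is the background for all such counts here. A gene that reached 100 in a single library passed through the library where it was high, so these counts are a description. It was so for 2 of 18 carriers and inhibitors at that level, Serpina1e and Serpina6, the corticosteroid carrier. It was so for 2 of 16 clotting genes and 3 of 13 complement genes.

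The clotting list was led by Kng1, kininogen, at 1670, 2282 and 1787 per 1000000. Serpinc1, antithrombin, followed at 1271, 1566 and 1408, Plg, plasminogen, at 1037, 1078 and 1284, and F2, prothrombin, at 961, 1131 and 1066. The widest of these ranges was that of Kng1, 1.37-fold. Complement was led by C3, at 4452, 5977 and 4970, Mbl2, a lectin that starts complement on sugars, at 1090, 1326 and 739, Cfb, at 659, 852 and 816, and C8g, at 567, 1001 and 793. The lipoprotein genes outside the selection were led by Apoe at 13618, 23634 and 18855, Apoc4 at 3634, 4559 and 3598, Apob, the core protein of very-low-density lipoprotein, at 2300, 2127 and 3203, and Apoh at 1382, 1804 and 1461.

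**Figure D2:**
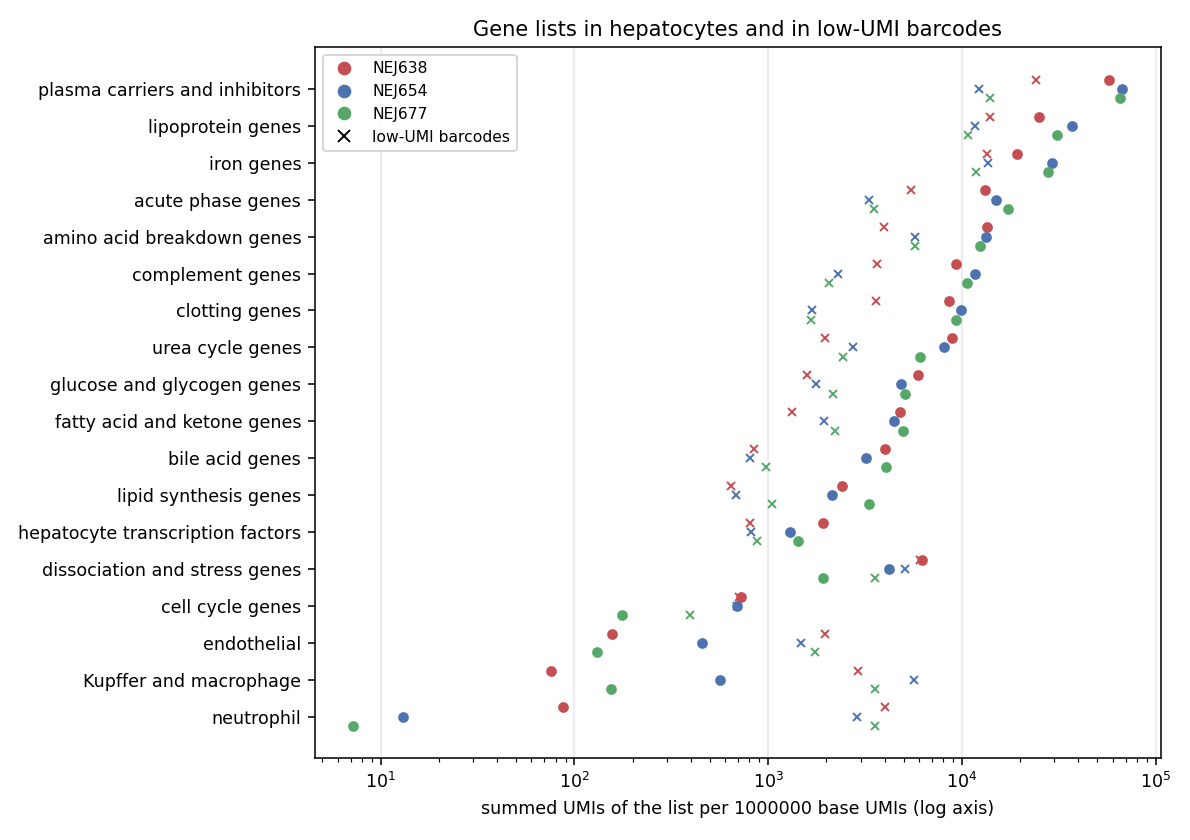
Summed level of 18 gene lists (log axis, UMIs per 1000000 base UMIs) in the members of each library (dots) and in its low-UMI barcodes (crosses). Lists of hepatocyte functions lie above the crosses, endothelial, Kupffer cell and neutrophil lists lie below them, and the cell cycle and stress lists lie near or below them.

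The 8 urea cycle genes summed to 8895 per 1000000 in NEJ638, 8088 in NEJ654 and 6072 in NEJ677. Ass1, argininosuccinate synthetase, lay at 3073, 4398 and 2749. Cps1, the mitochondrial enzyme that commits ammonia to the cycle, lay at 3453 (3369 to 3540), 1709 (1639 to 1781) and 1552 (1487 to 1619), highest in NEJ638 with no overlap of intervals. Arg1, arginase, lay at 672, 662 and 584 and Otc, ornithine transcarbamylase, at 685, 486 and 519. The 19 amino acid breakdown genes summed to 13539, 13362 and 12392, led by Gnmt at 1084, 2295 and 2328, Mat1a, which makes S-adenosylmethionine, at 2788, 2078 and 1877, Bhmt, at 1325, 1693 and 1861, and Tdo2, which opens tryptophan, at 926, 808 and 997. Without the 37 barcodes of low secreted share, Gnmt in NEJ677 was 1771. Of 19 amino acid genes at 100 or more, 5 had a highest library over 2 times the lowest. Among those were Gnmt, lowest in NEJ638, and Tat, Cth and Hao1, highest in NEJ638.

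Among glucose genes, Pck1, the enzyme that commits carbon to glucose synthesis, stood at 1878 (1815 to 1941) in NEJ638, 684 (639 to 730) in NEJ654 and 681 (638 to 725) in NEJ677. Other leading genes differed less: Fbp1, fructose bisphosphatase, lay at 907, 990 and 1051, and Khk, ketohexokinase, at 329, 500 and 502. Of the 12 fatty acid and ketone genes at 100 or more, 0 were past 2-fold. The thiolase genes Acaa2, at 543, 790 and 898, and Acaa1b, at 419, 527 and 594, were lowest in NEJ638. In lipid synthesis, 5 of 10 genes at 100 or more were past 2-fold, and they did not share a direction. Scd1, the desaturase that makes oleate, lay at 365, 874 and 1862, highest in NEJ677. Hmgcs1, an early enzyme of cholesterol synthesis, lay at 704, 279 and 438, highest in NEJ638. Dgat2, which makes triglyceride, lay at 380, 229 and 230 and Acly, the citrate lyase, at 144, 126 and 79.4.

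In the bile acid list, 8 of 15 genes at 100 or more were past 2-fold. Cyp7a1, the rate-limiting enzyme of bile acid synthesis, lay at 294 per 1000000 in NEJ638 (269 to 319), 22.3 in NEJ654 (15.0 to 32.1) and 31.0 in NEJ677 (22.5 to 41.8). It was found in 48.9% of members in NEJ638, 8.76% in NEJ654 and 11.6% in NEJ677. Cyp8b1, which sets the share of cholic acid, was instead lowest in NEJ638, at 49.6, 134 and 269. Of the uptake carriers, Slco1b2 lay at 1064, 417 and 662 and Slc10a1, the sodium-dependent carrier, at 475, 422 and 413. Slc27a5, a bile acid ligase, lay at 400, 702 and 619, and Abcb11, the export pump, at 211, 314 and 363. NEJ638 was thus highest for Cyp7a1 and Slco1b2 and lowest for Cyp8b1, Slc27a5 and Abcb11.

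Of 9 iron genes at 100 or more, 4 were past 2-fold. Hamp, hepcidin, lay at 38.2 per 1000000 in NEJ638 (29.8 to 48.2; 70 UMIs), 1907 in NEJ654 (1833 to 1984) and 2122 in NEJ677 (2046 to 2201), a 55.6-fold range. Hamp2, its neighbouring copy in the mouse genome, lay at 60.5 (49.8 to 72.9), 2307 (2225 to 2391) and 1700 (1632 to 1770). In NEJ677 a single member held 1258 of the 2355 Hamp2 UMIs, and 50.9% of members held a UMI, so that level rests largely on 1 barcode. Tfrc, the receptor that takes up transferrin iron, had the reverse order, at 136 (119 to 154), 8.47 (4.23 to 15.2) and 5.77 (2.49 to 11.4). Trf, Ftl1, at 3576, 5335 and 4805, and Fth1, at 3321, 4315 and 4584, ranged by at most 1.49-fold. Slc40a1, the iron exporter ferroportin, lay at 165, 74.7 and 65.0, and Hjv, the hemojuvelin that raises hepcidin transcription through bone morphogenetic protein (BMP) signals, at 22.4, 42.3 and 45.5. In NEJ638 the level of Hamp in members was below that in its low-UMI barcodes, 89.9 per 1000000, and 5.78% of its members held a UMI. In NEJ654 and NEJ677, where the low-UMI level was 311 and 536, 52.6% and 69.4% of members held a UMI, and the tenth of members with most Hamp UMIs held 80.2% and 64.2% of them. If all erythroid, B, T and NK marker UMIs of members were free RNA, it made up 8.29%, 15.5% and 10.7% of their base UMIs. This estimate depends on the markers chosen. Neutrophil markers summed to 87.3, 13.1 and 7.22 per 1000000 in members and to 4004, 2886 and 3576 in low-UMI barcodes, which would give less. The endothelial list, at 455 in members and 1486 in low-UMI barcodes of NEJ654, would give more there. The part of free RNA in the share of members with a Hamp UMI was not tested. Hamp averaged over members rather than over UMIs was 1139 in NEJ654.

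The promoters of both hepcidin genes are shown because both were lowest in NEJ638, while their order in NEJ654 and NEJ677 was not shared. The 250 bases before each RefSeq start are given 5′ to 3′ from GRCm38.p6, minus strand, with capitals for the core of a BMP response element, GGCGCC, and of a STAT site, TTCNNNGAA. Hamp is at chr7:30944030-30944279 and Hamp2 at chr7:30924182-30924431. GENCODE M21 places the Hamp2 gene at chr7:30922372-30924681, so that the Hamp2 window lies within the annotated gene.
Hamp: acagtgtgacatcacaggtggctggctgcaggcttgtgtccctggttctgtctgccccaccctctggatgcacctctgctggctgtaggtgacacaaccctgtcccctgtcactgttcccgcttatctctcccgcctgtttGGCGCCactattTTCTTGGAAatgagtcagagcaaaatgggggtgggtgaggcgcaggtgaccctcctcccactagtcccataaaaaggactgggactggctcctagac
Hamp2: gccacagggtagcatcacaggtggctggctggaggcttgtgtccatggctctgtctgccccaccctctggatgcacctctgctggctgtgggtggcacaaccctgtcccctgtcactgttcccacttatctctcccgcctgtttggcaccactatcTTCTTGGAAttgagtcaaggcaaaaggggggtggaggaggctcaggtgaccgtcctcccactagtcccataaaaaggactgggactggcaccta
Shifted by 3 bases, the stretches share 227 of 247 bases (91.9%). The Hamp stretch holds GGCGCC 109 bases and TTCNNNGAA 97 bases before its start. The Hamp2 stretch holds TTCNNNGAA 94 bases before its start, and GGCGCC is not in this window. Of all 32851 promoters of this length, 9.59% hold GGCGCC and 7.02% hold TTCNNNGAA on either strand. The likeness of the genes means that reads may be split between them, and each level is uncertain to that extent.

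**Figure D3:**
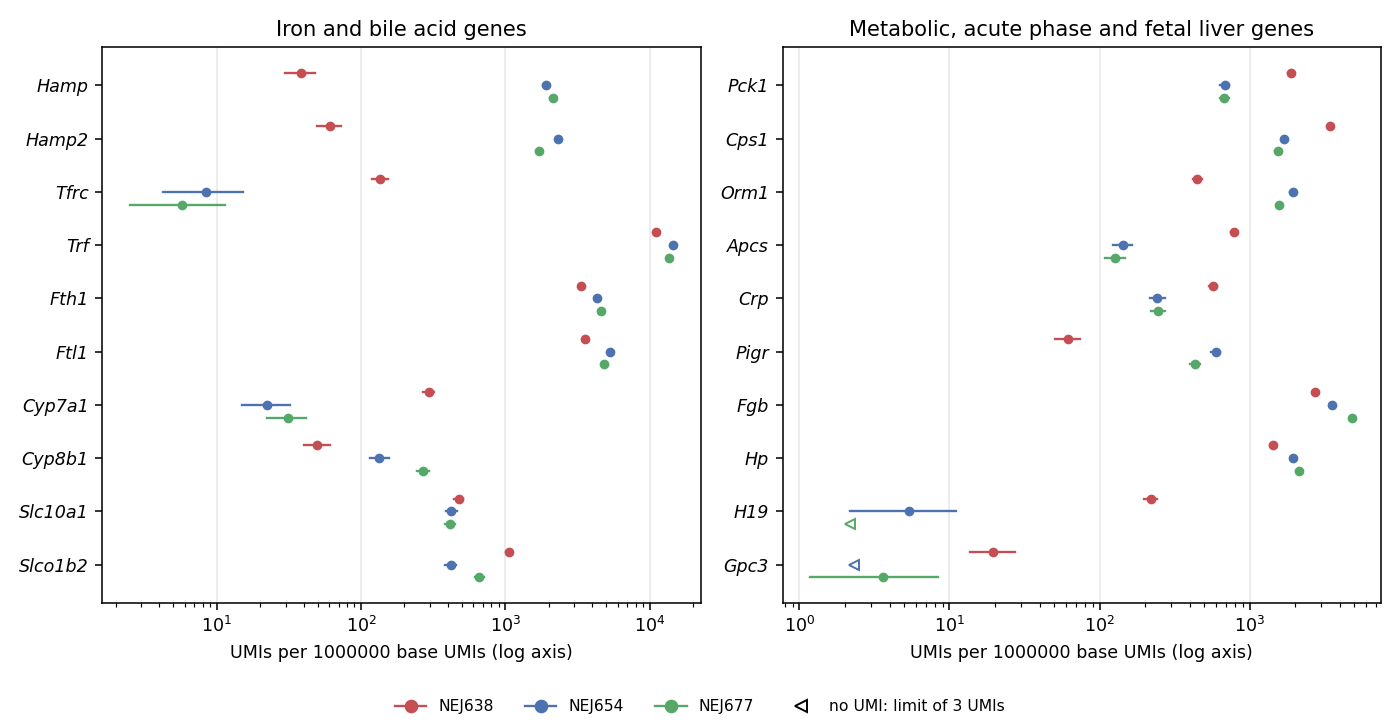
Levels of 20 genes in the members of each library (log axis, UMIs per 1000000 base UMIs). Dots are levels, lines are exact 95% Poisson intervals, and open triangles mark the limit of 3 UMIs where a gene had none. Hamp and Hamp2 are 38.2 and 60.5 in NEJ638 and between 1700 and 2307 in the other libraries, whereas Tfrc, Cyp7a1, Apcs and H19 are highest in NEJ638.

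The acute phase genes had no common order across libraries. The fibrinogen chains Fgb, at 2750, 3529 and 4842, Fgg, at 2232, 2333 and 2960, and Fga, at 2109, 1821 and 3015, were highest in NEJ677, as was Hp, haptoglobin, at 1423, 1958 and 2122. Orm1, an acid glycoprotein, was lowest in NEJ638, at 448 against 1934 and 1583. Apcs, serum amyloid P, was highest there, at 787 (747 to 829) against 142 (123 to 165) and 127 (109 to 147), and so was Crp, C-reactive protein, at 575 against 243 and 245. Of 14 acute phase genes at 100 or more, 5 were past 2-fold. Pigr, which carries IgA into bile, lay at 61.6, 594 and 433.

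Of the 18 transcription factors, 7 reached 100 per 1000000 in a library and 3 of these were past 2-fold. Hnf4a, a main regulator of hepatocyte genes, was even, at 187, 178 and 173, as was Rxra, at 126, 129 and 119. Cebpa lay at 283, 181 and 234, and Cebpb, which rises in inflammation and after injury, at 468, 137 and 196.

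Genes of fetal liver and of liver tumors were at or near 0. Igf2, Dlk1 and Krt19 had no UMI in any library. The limit of 3 UMIs is 1.64 per 1000000 in NEJ638, 2.31 in NEJ654 and 2.17 in NEJ677. Afp, alpha-fetoprotein, had 15, 1 and 3 UMIs. The exception was H19, the noncoding RNA beside Igf2. It lay at 220 per 1000000 in NEJ638 (199 to 242), 5.39 in NEJ654 (2.17 to 11.1) and 0 in NEJ677 (0 to 2.66). It was found in 51 of 225 members of NEJ638, and the tenth of members with most H19 UMIs held 89.1% of them. Its level in the low-UMI barcodes of NEJ638 was higher, at 387, and in the other barcodes it was 24.3. Gpc3, a fetal surface protein, lay at 19.6, 0 and 3.61, and Sox9, a duct and progenitor factor, at 18.0, 12.3 and 2.89.

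Transcripts of the stress and dissociation list fell in order from NEJ638 to NEJ677, at 6257, 4190 and 1929 per 1000000. Of its genes 13 of 16 were lowest in NEJ677, as were 30.9% of the 1682 genes of 100 or more in a library. Of the 16, 10 reached 100 in a library. Mt1, a metallothionein that binds zinc, lay at 2549, 2158 and 382, Mt2 at 508, 357 and 28.2, Hspa8 at 962, 504 and 610 and Hsp90aa1 at 463, 316 and 209. The immediate early gene Fos lay at 350, 80.1 and 52.7. In the low-UMI barcodes the list summed to 6072, 5064 and 3569, so that the same order held outside the members. The part of handling in the differences between libraries was not tested.

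The 12 cell cycle genes summed to 722, 690 and 176 per 1000000, and all 12 were lowest in NEJ677 (30.9% of the 1682 genes of 100 or more). Of the 12, 2 reached 100 in a library, so that this share is not matched to their levels. Mki67, a mark of dividing cells, lay at 68.2, 156 and 31.0, Birc5, survivin, at 131, 110 and 31.0, Pcna, the replication clamp, at 87.8, 64.7 and 23.1 and Cdk1 at 75.3, 63.9 and 10.8. Members with at least 5 UMIs of the list were 80 of 225 in NEJ638 (35.6%), 49 of 194 in NEJ654 (25.3%) and 10 of 173 in NEJ677 (5.78%). They held 88.1%, 90.1% and 79.5% of the UMIs of the list but were deeper than the other members, with medians of 11476, 7261 and 15271 UMIs. When each member was thinned to 1000 base UMIs, those with a cell cycle UMI were 35.3% of 207 (28.8% to 42.2%), 32.1% of 187 (25.5% to 39.3%) and 7.10% of 169 (3.72% to 12.1%), so that NEJ677 stayed lowest with no overlap of intervals. The list stood at 705, 693 and 398 per 1000000 in the low-UMI barcodes. This was within the intervals of the members in NEJ638 (684 to 762) and NEJ654 (646 to 737) and above the members in NEJ677. The part of free RNA was not tested. Other-cell markers made up 0.0591%, 0.111% and 0.119% of base UMIs in the members with at least 5 such UMIs and 0.0819%, 0.157% and 0.0584% in the other members, so that the former were higher in NEJ677 alone.

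Xist, the noncoding RNA of the inactive X chromosome, lay at 745, 347 and 0 per 1000000, with no UMI in NEJ677. The Y-linked genes Ddx3y, at 58.5, Eif2s3y, at 36.1, Uty, at 10.8, and Kdm5d, at 5.77, were seen in the members of NEJ677 and had no UMI in those of NEJ638 and NEJ654. Hepatocytes of NEJ638 and NEJ654 therefore had the Xist-positive, Y-negative pattern and those of NEJ677 the reverse.

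The 20 male-biased liver genes were chosen with earlier results of these data known, and they summed to 2128, 5883 and 17378 per 1000000. They were highest in NEJ677 in 19 of 20 cases, as were 25.6% of the 1682 genes of 100 or more in a library. With no overlap of intervals, 14 of the 20 lay above both other libraries, and 5 of the 8 at 100 or more in a library did so, against 7.49% of those 1682 genes. These counts are a description, from which nothing is read. Mup20, the pheromone darcin, lay at 90.0 (76.8 to 105), 371 (339 to 406) and 4165 (4058 to 4274). In NEJ677 a single member held 1614 of its 5771 UMIs, and the level was 2153 with the selection limit at 5% and 2380 with it at 20%. Mup3, another major urinary protein, lay at 731, 4240 and 7911, and Serpina1e at 136, 817 and 3326. Selenbp2 lay at 373, 57.0 and 375 and Nudt7 at 347, 163 and 371, so that they did not separate NEJ677 from NEJ638. Ugt2b1, a glucuronidating enzyme, was highest in NEJ638, at 358, 105 and 235. Mup3, Mup20 and Serpina1e also differed between NEJ638 and NEJ654, in which no Y-linked gene was seen. Major urinary protein genes are near-identical copies, and single members of the family are uncertain.

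The 20 female-biased genes summed to 2941, 2243 and 222 per 1000000 and were lowest in NEJ677, ties included, in 18 of 20 cases, against 30.9% of the 1682 genes of 100 or more. With no overlap of intervals, 12 of the 20 lay below both other libraries, and all 7 at 100 or more in a library did so, against 7.02% of those genes. This list too was chosen with earlier results known, so nothing is read from these counts. Sult2a1, a sulfotransferase of bile acids and steroids, lay at 1844 (1783 to 1907) in NEJ638 and 436 (401 to 473) in NEJ654. It had no UMI in NEJ677 (0 to 2.66). With NEJ677 set to 3 UMIs, the level in NEJ638 was 852-fold higher. Sult2a2, a copy of it, lay at 109, 360 and 0. The P450 gene Cyp2b9 lay at 156, 255 and 20.2. Prlr, the prolactin receptor, differed least, at 181, 173 and 108. Cyp17a1, a steroid hydroxylase, lay at 68.7, 80.8 and 5.77. Sult2a genes share sequence, so the split between them is uncertain.

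**Figure D4:**
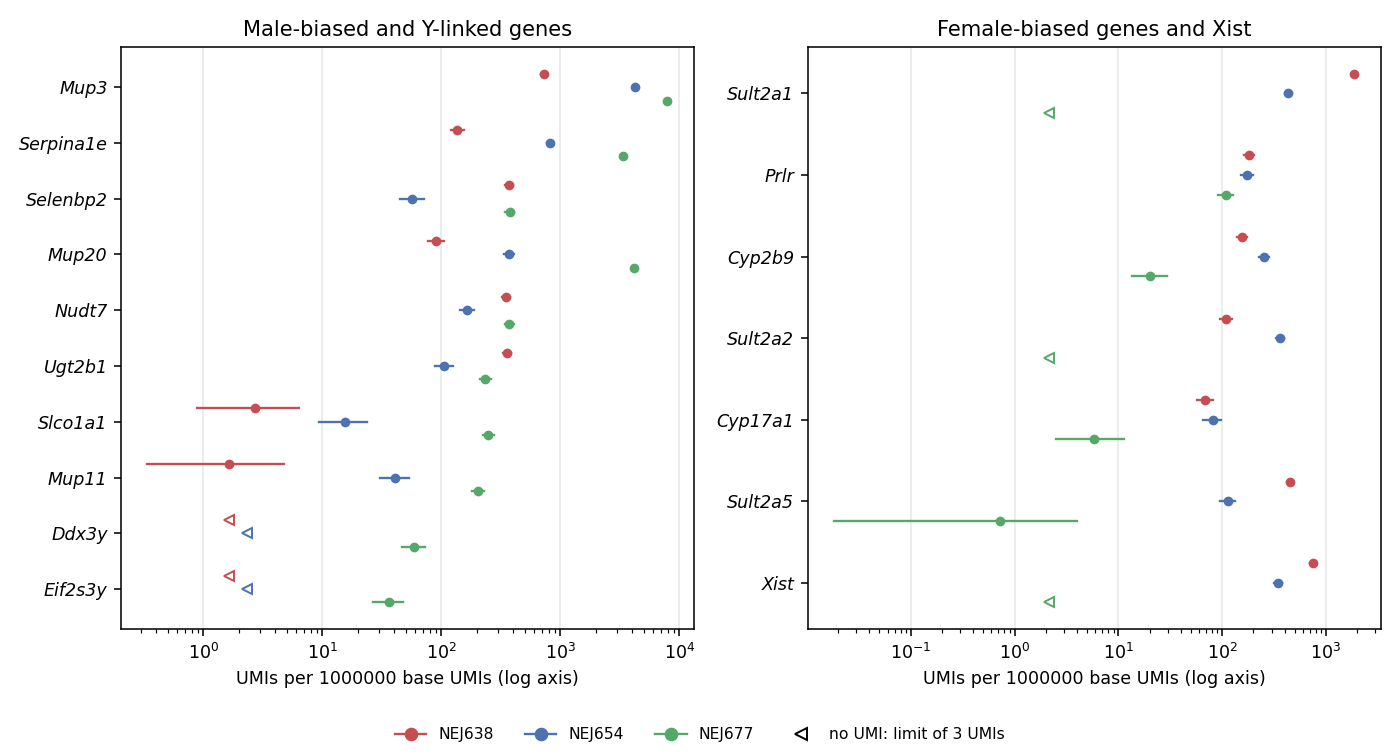
Levels of male-biased and Y-linked genes (left) and of female-biased genes with Xist (right) in the members of each library, on a log axis of UMIs per 1000000 base UMIs. Lines are exact 95% Poisson intervals and open triangles mark the limit of 3 UMIs where a gene had none. NEJ677 lies highest for Mup20 (4165) and is without a UMI of Xist and Sult2a1.

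Zonation was examined within each library, by ranking members on the share of pericentral UMIs among 10 ranking genes. The pericentral ranking genes were Cyp2e1, Cyp1a2, Glul, Oat and Slc1a2 and the periportal ones Cyp2f2, Hal, Gls2, Sds and Ctsc. Members with at least 10 such UMIs were cut by rank into 3 equal groups, of which the periportal and the pericentral end are compared. They numbered 175 in NEJ638, 111 in NEJ654 and 109 in NEJ677, and each end held 58, 37 and 36 members. The ends are ranges of a score and not cell types. Members of the periportal end held at most 20%, 0% and 3.85% pericentral UMIs and those of the pericentral end at least 93.3%, 26.3% and 69.4%. The pericentral end of NEJ654 thus held members with more periportal than pericentral UMIs. Within 5 percentage points of a border lay 45, 55 and 53 members. The ranking genes follow from the ranking and are no finding.

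Most pericentral genes that were not used for ranking were higher in the pericentral end, but Cyp3a11 was lower in NEJ638, at 0.90 times (0.85 to 0.95). Genes were counted when the mean of both ends was at least 50 per 1000000. A gene high in 1 end alone could pass, as Cyp2a5 did at 643 and 0 in NEJ677, so these counts are a description. Past 1.5-fold were 12 of 15 in NEJ638, 13 of 14 in NEJ654 and 12 of 14 in NEJ677, and 0 were lower by that margin. Over all genes of at least 50 per 1000000, 9.12%, 15.5% and 22.2% were higher past 1.5-fold. The median fold of the pericentral genes was 3.11, 2.87 and 4.41, beside 1.02, 1.05 and 1.13 for all genes. Periportal genes not used for ranking were lower past 1.5-fold in 13 of 18, 15 of 18 and 17 of 19 cases, against 7.72%, 7.99% and 8.24% of all genes. Their medians were 0.42, 0.53 and 0.44 times. They could pass through the periportal end alone, as Aldh1b1 did at 198 there and 0 in the pericentral end of NEJ677. These counts too are a description. Without members of low secreted share the counts were 13 of 14 and 16 of 19 in NEJ654, with backgrounds of 15.9% and 7.53%. They were 13 of 15 and 17 of 19 in NEJ677, with backgrounds of 23.1% and 8.98%.

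Gulo, the last enzyme of vitamin C synthesis, was 23.0-fold higher in the pericentral end of NEJ638 (13.3 to 43.7), 13.9-fold in NEJ654 (6.22 to 38.7) and 30.4-fold in NEJ677 (15.2 to 71.4). Cyp2a5, a coumarin hydroxylase, was at 5.53 per 1000000 in the periportal and 269 in the pericentral end of NEJ638, at 3.57 and 418 in NEJ654, and at 0 and 643 in NEJ677. The glutathione transferase genes Gsta3 (2.5, 2.08 and 2.03-fold) and Gstm1 (1.32, 1.99 and 2.65-fold) were graded less. Cyp3a11, of highest median level in the list, stayed within 1.5-fold in all 3 libraries, at 0.90, 1.45 and 1.45 times. Mgst1, the microsomal glutathione transferase, was at 1.60, 1.68 and 1.22 times and Akr1c6 at 3.11, 2.23 and 1.75 times.

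On the periportal side, Pck1 was at 0.38, 0.31 and 0.40 times the level of the periportal end and Ass1 at 0.38, 0.52 and 0.42 times. Fbp1 was at 0.57, 0.49 and 0.44 times and Hsd17b13, a lipid droplet enzyme, at 0.21, 0.56 and 0.19 times. Cps1 was graded less, at 0.51, 0.83 and 0.61 times, and Trf stayed near even, at 0.87, 0.93 and 0.90 times. Alb, a gene of the selection rule, was at 0.65, 0.72 and 0.58 times. Mup3, from the midlobular list, was lower in the pericentral end of every library, at 0.16, 0.53 and 0.31 times. The hepcidin genes had no common order: Hamp rose from 554 to 3201 per 1000000 between the ends in NEJ654 and fell from 1839 to 705 in NEJ677, while Hamp2 was higher in the pericentral end of both, at 1.51 and 2.23 times. In NEJ638, Hamp had 20 UMIs in the pericentral and 5 in the periportal end, and Hamp2 was at 0.76 times (0.46 to 1.26). A single member held 615 of the 2478 Hamp UMIs of NEJ654, and another 290 of the 2941 of NEJ677. The part of single members in these contrasts was not tested.

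**Figure D5:**
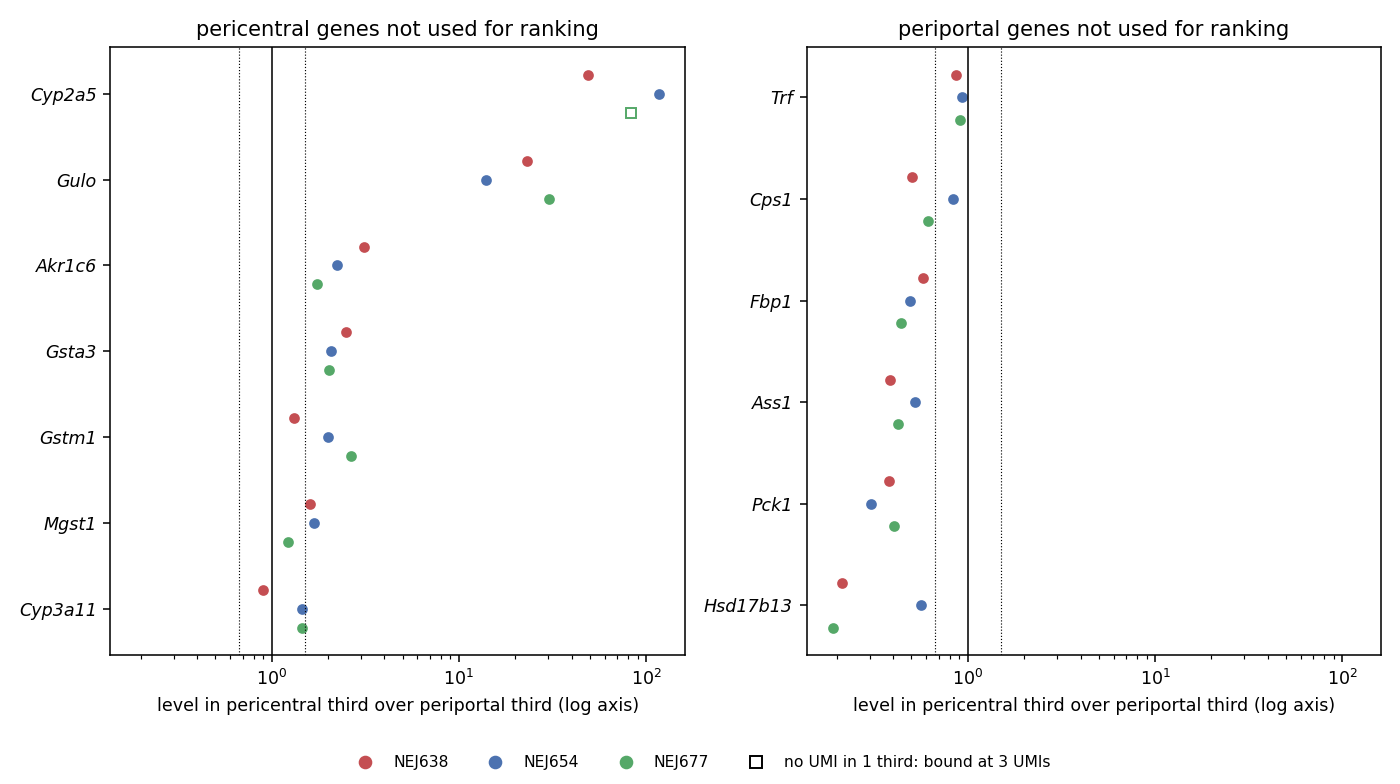
Level in the pericentral end over level in the periportal end, on a log axis, for the pericentral and periportal genes named in the text. These were not used for ranking and had a mean of at least 50 per 1000000 over both ends. Dots are libraries, open squares are bounds where 1 end had no UMI, and dotted lines mark 1.5-fold. Gulo lies between 13.9 and 30.4, Cyp3a11 between 0.90 and 1.45, and Pck1 between 0.31 and 0.40.

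Outside every list, the transcript of highest median over the libraries was Gm42418, a locus that overlaps ribosomal RNA repeats, at 3481 per 1000000 in NEJ638, 28769 in NEJ654 and 28035 in NEJ677. It was higher in the low-UMI barcodes, at 180530, 246497 and 246399. Selenop, the selenium carrier of plasma, lay at 6553, 3680 and 3778, and Dbi, a carrier of acyl-CoA, at 3775, 3090 and 4329. Gpx1, a glutathione peroxidase, lay at 2683, 3351 and 3092. The ribosomal protein genes Rpl41, Rps29 and Rpl37a, the respiratory chain genes Ndufa4 and Uqcrq, and Malat1 filled the other places among the first 10. Rps29 ranged most of these after Gm42418, at 4118, 1676 and 2490.

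The 10 genes of widest range, among those at 200 or more in a library, included Sult2a1, Sult2a5, Xist, Sult2a2, Mup11, H19, Slco1a1, Gt(ROSA)26Sor and Hamp. Sult2a5 lay at 454 in NEJ638 and 114 in NEJ654 and had 1 UMI in NEJ677, and Mup11 had 3 UMIs in NEJ638 and lay at 40.8 in NEJ654 and 204 in NEJ677. Slco1a1, a male-biased uptake carrier of organic anions, lay at 2.73, 15.4 and 248. Gt(ROSA)26Sor, the locus into which transgenes are often placed, lay at 262, 4.62 and 6.49 in the members, at 372, 30.2 and 26.8 in the other barcodes and at 299.7, 17.8 and 21.3 in the low-UMI barcodes. The strain name in the methods puts the MYC transgene at that locus, and which library carries it is not in the labels. Mouse Myc lay at 33.8 (25.9 to 43.4), 5.39 (2.17 to 11.1) and 3.61 (1.17 to 8.42) in the members. In the low-UMI barcodes it lay at 33.25, 7.43 and 11.97, and in the other barcodes at 41.0, 23.3 and 27.0. How much of the level in members was free RNA was not tested. Hamp, H19 and Gt(ROSA)26Sor set NEJ638 apart, and Xist, Slco1a1 and the Sult2a genes set NEJ677 apart. Serpina6, Tat, Cth, Hao1, Tfrc, Apcs, Crp, Pigr, Cyp7a1, Afp, Fos, Orm1, Slc40a1, Hjv, Cyp8b1 and mouse Myc were named after their values had been seen.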

How the data were processed

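Single-cell 3' RNA libraries of 7 mouse livers were deposited, of which 3 were analysed. The authors made the deposited counts (whole UMI counts per gene and barcode, every barcode kept, not normalized) with Cell Ranger, given as version 6.0 in the submitters' processing notes, whereas the file headers name version 4. Intronic reads were included per the study's methods, and the genome build is not given in the sources used here. The labels give no groups, so levels, ranges and counts are per library, without p-values. Of 32285 genes in the files, 32158 matched GENCODE M21.

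Barcodes were selected by the rule given in the report, and UMIs were summed over members. The members and lists were chosen with earlier results of these data known. Genes were named by rule: the selection genes and Cyp2e1, the 4 members of highest median level in each function and state list and those without a UMI, up to 6 of each sex and zone list, the 10 highest genes outside all lists, and the 10 of widest range among genes of 200 or more in 1 library (a 0 was set to 3 UMIs). For the Scrublet doublet scores (scanpy 1.11.5) the automatic threshold failed, so no doublet was removed in the values reported; removal of the top scores at 0.8% per 1000 barcodes was an alternative. Intervals and limits (3 UMIs where a gene had none) cover counting error only. Interval coverage and the ranking were tested on simulated data. Python 3.11.15, numpy 2.4.6, scipy 1.17.1, pandas 2.3.3 and matplotlib 3.10.9 were used. Promoters are from RefSeq. Some genes that the naming rule picks are not reported here.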

Additional observations from a re-analysis of the deposited data

Results flagged for a closer look

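Barcodes below the selection limit carried a liver signal that the comparisons did not use. Of those of 5 to 10% selection share, 98 in NEJ638, 46 in NEJ654 and 147 in NEJ677 had a secreted share of at least 50%. Among barcodes of 5 to 10% selection share, those with a secreted share under 50% numbered 9 in NEJ638, 88 in NEJ654 and 365 in NEJ677, and the labels name no control samples to set them against.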

How the results depend on the processing

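Of 127 values of the main results under alternatives, 115 stayed (within 1.5 times for a count, within the 95% counting interval for a share) and 12 moved. Many of the counts are out of a short list and could not rise by 1.5 times. A count can also stay while levels move: with a limit of 5%, listed genes at 100 or more in NEJ677 went from 144 to 130. With a selection share of at least 5%, barcodes that passed the rule numbered 574 in NEJ638, 376 in NEJ654 and 778 in NEJ677, and what the added barcodes are was not tested. The added barcodes of NEJ638 had a median of 105 genes, and 107 of 349 held at least 20 secreted-protein and enzyme UMIs. With at least 20% they numbered 2, 36 and 20, their selection share was 24.1%, 22.25% and 22.32%, and 7 female-biased genes were lowest in NEJ677. Without members of a secreted share under 50%, an alternative chosen after seeing the data, the selection share was 17.35% in NEJ654 and 16.22% in NEJ677. Leaving out members with over 50% haemoglobin UMIs, also chosen after seeing the data, moved none of the values it was run for. Shares of the selection genes follow from the limit by construction. Of 351 single-gene values, 229 stayed within their counting interval and 122 moved. With a limit of 5%, levels in NEJ677 became 28059 for Alb, 909 for Cyp2e1, 18.3 for Cyp7a1, 2153 for Mup20 and 3.35 for Tfrc. With 20%, they became 120490 for Alb, 15058 for Fabp1, 485 for Cyp2e1, 4014 for Hamp, 10.0 for Cyp7a1 and 2380 for Mup20 in NEJ677, and 120660 for Alb, 491 for Cyp2e1 and 0 for H19 in NEJ654. In NEJ638, which then rested on 2 barcodes, they became 139872 for Alb, 3899 for Fabp1, 700 for Cyp2e1, 999.8 for Hamp, 100 for Cyp7a1, 599.9 for Sult2a1, 599.9 for Tfrc and 0 for Mup20 and H19. As a mean over members, NEJ654 had 1139 for Hamp and 246 for Mup20, and NEJ677 had 20.4 for Cyp7a1 and 3.81 for Tfrc. Subtraction of the low-UMI profile, scaled by the free RNA estimate from erythroid, B, T and NK markers, set Tfrc to 0 in NEJ654 and NEJ677. It set H19 to 0 in NEJ654. Ranking members thinned to 1000 UMIs gave no value, because too few kept enough ranking UMIs. No paired analysis was possible because the labels give no groups and the results come from no test, and no replicate could be left out for the same reason. The limit of 3 UMIs for genes without a UMI was 1.64, 2.31 and 2.17 per 1000000 base UMIs in NEJ638, NEJ654 and NEJ677. The exact 95% interval of 0 UMIs reaches higher, to 2.66 in NEJ677.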
